A study of Mus musculus with 4 samples.

Results

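Islet macrophages were chosen from 4 inDrop libraries of mouse pancreatic islet cells by their counts for 6 genes, and 69 of 6566 kept barcodes met the rule (1.05%). Barcodes were kept if they had 500 or more counts, 250 or more genes and no more than 25% mitochondrial counts. A macrophage held at least 5 counts over C1qa, C1qb, C1qc, Csf1r, Tyrobp and Lyz2 with at least 3 of these detected, and under 10% of its counts in Ins1, Ins2, Gcg and Sst together. InDrop captures single cells in droplets and tags the 3′ ends of their messenger RNAs. The series compares islets of genotype WT with islets of genotype Sin3A mutant in 2 libraries each. Each title ends in 1 of 2 numbers, found once per genotype and written here as A and B, so that WT A, mutant A, WT B and mutant B stand for the libraries carrying those labels, in that order for every run of 4 values. The sources used here do not state strain, age, sex, allele, the cells in which Sin3a was targeted, or what the numbers mean.

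Macrophages are phagocytes that live in most tissues, renewed locally or from blood monocytes, and depend on signalling through the CSF1 receptor. In islets they lie beside the capillaries and the endocrine cells, take up granules and debris, and are known for high lysozyme, MHC class II and inflammatory cytokine expression in adult mice. Complement C1q is made mainly by macrophages, and Tyrobp encodes DAP12, the adaptor through which many myeloid receptors signal.

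PU.1, the Ets-family factor encoded by Spi1, is required for macrophage development and binds sites with a GGAA core. The 7 bases AGGAAGT, or ACTTCCT on the other strand, were searched in the 250 bases before the RefSeq start of each gene. The following 4 stretches were picked because they hold a match and belong to genes on which the description turns, with the matched letters in capitals and each stretch written 5′ to 3′ on the strand of its gene. They come from RefSeq promoters on GRCm38.p6, and bases that lie inside the GENCODE gene were left off. C1qb (chr4:136886201-136886450, minus strand), C1qc (chr4:136893066-136893164, minus strand) and Lyz2 (chr10:117282322-117282522, minus strand) belong to the rule, and Mrc1 (chr2:14229164-14229391, plus strand) encodes the mannose receptor.
C1qb: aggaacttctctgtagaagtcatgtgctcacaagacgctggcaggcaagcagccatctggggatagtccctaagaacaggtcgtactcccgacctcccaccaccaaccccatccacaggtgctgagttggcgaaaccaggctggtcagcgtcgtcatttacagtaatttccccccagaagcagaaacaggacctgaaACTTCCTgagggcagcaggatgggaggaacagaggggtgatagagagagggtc
C1qc: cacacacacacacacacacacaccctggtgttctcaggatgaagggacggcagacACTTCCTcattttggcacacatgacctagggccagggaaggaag
Lyz2: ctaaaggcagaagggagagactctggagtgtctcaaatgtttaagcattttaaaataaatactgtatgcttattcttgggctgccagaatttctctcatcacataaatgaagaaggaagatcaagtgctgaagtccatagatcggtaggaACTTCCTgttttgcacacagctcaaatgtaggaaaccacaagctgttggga
Mrc1: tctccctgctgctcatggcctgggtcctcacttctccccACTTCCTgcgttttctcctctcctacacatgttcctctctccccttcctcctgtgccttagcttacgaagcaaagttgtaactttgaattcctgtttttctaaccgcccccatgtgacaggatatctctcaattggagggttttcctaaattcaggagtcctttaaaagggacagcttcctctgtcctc
The match began 53 bases before the start in C1qb, 195 in C1qc, 100 in Lyz2 and 211 in Mrc1. A match stood in at least 1 promoter of 8.80% of the 27025 symbols in RefSeq, and in 7.69% of its 32851 promoters. Of the 25 genes with the largest ratio of macrophage to remaining level, described next, 19 had a promoter in the table and 9 of these held a match.

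Ranked by the ratio of their level in macrophages to that in all remaining cells, the leading genes were myeloid genes outside the rule as well as inside it. Levels are CPM, the counts of a gene scaled to the summed macrophage counts of a library. Ctss, which encodes the lysosomal protease cathepsin S, stood at 2504, 1124, 1749 and 1363 CPM against a mean of 2.55 CPM in the remaining cells. Mpeg1, the macrophage pore-forming protein, stood at 1442, 346, 1300 and 762 CPM against 2.50. Fcrls, a scavenger receptor-like gene of resident macrophages, stood at 951, 822, 258 and 334 CPM against 1.19. All 4 libraries lay far above the remaining cells for Ctss, Mpeg1 and Fcrls. The 25 leading genes were C1qb, Retnla, C1qc, Ctss, Tyrobp, Il1a, Fcrls, Ccl3, Gpr34, Fcgr4, Mrc1, Csf1r, Ccl4, Ly86, Cxcl2, Ccl12, Tnf, Mpeg1, Ms4a6d, Laptm5, Fcgr3, Clec4n, Pld4, Gpr65 and Pf4. Not all of the 25 were high in every library. Retnla had all of its 83 counts in 3 cells of mutant B, and Ms4a6d and Gpr65 had no count in mutant A. The ratios of the 25 genes ran from 268 for Pf4 to 1078 for C1qb. These ratios describe cells selected on myeloid counts, so no test was made of them.

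The label was checked with 18 macrophage markers that the rule did not use, and 68 of the 69 cells held at least 10 counts over them. This cut was also passed by 1 cell of mutant A with 1 C1q count and 16 counts over ductal genes, with 16 marker counts. One cell of mutant B with 953 counts over acinar genes passed it with 26. The share of remaining cells that pass it is not given here. Their summed level was 13300, 9210, 9808 and 12380 CPM, against 286 to 385 CPM in the remaining cells. Cx3cr1, the fractalkine receptor, was found in 57 members (82.6%), and in 1.57% of 318 endothelial cells and 4.24% of 2571 beta cells. Adgre1, which encodes F4/80, was found in 49 members, with 571, 389, 258 and 429 CPM. Cd68, a lysosomal glycoprotein, stood at 380.4, 134 and 305 CPM in WT A, WT B and mutant B. In mutant A it had no count, which allows up to 129.7 CPM. The median depth was 3941 counts per macrophage, 4318 per endothelial cell and 8551 per beta cell, so both comparison sets were deeper. Thinned to 1000 counts per cell, Cx3cr1 was found in 43.3% of macrophages.

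**Figure D1:**
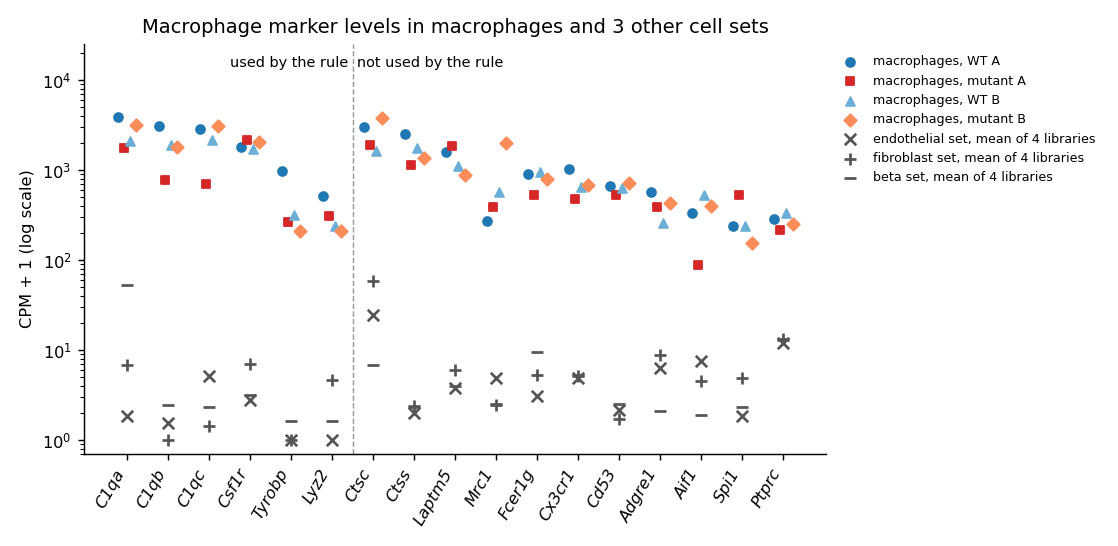
Levels of the 6 genes used by the rule and of 11 markers it did not use, as CPM + 1 on a log scale; coloured symbols are the macrophages of each library and grey symbols the mean over 4 libraries of 3 other cell sets. For each gene shown, the macrophages of all 4 libraries lie above the means of the 3 other sets.

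Among the 6 genes that chose the cells, the 3 chains of C1q were lowest in mutant A, where 3 of the 6 cells held almost no C1q counts. C1qa stood at 3820, 1730.0, 2103 and 3164 CPM, and C1qb at 3059, 778, 1902 and 1782 CPM. In C1q-rich cells without those rich in acinar or fibroblast counts, C1qa stood at 3820, 3481, 2289 and 3417 CPM, lowest in WT B, while C1qb and C1qc remained lowest in mutant A, at 1607 and 1428 CPM. Csf1r stood at 1807, 2162, 1711 and 2020 CPM, the smallest ratio of highest to lowest among the 6. Tyrobp stood at 967, 259, 315 and 209.7 CPM, and Lyz2, the macrophage lysozyme, at 507, 303, 239 and 209.7 CPM. Csf1r was found in 68 members, C1qa in 63, Tyrobp in 45 and Lyz2 in 34. The median member held 42 counts over the 6 genes, and the range was 5 to 165. Members under 10 such counts numbered 0, 3, 3 and 4. Just outside the threshold, 3, 0, 7 and 7 kept barcodes fell short of it narrowly, with a median of 4 or 5 counts over the 6 genes. A further 0, 3, 7 and 1 barcodes met the myeloid part of the rule and were left out for their hormone counts.

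The libraries differed in how many macrophages they gave and how deep these were. Members numbered 11, 6, 23 and 29, with 63090, 23126, 104613 and 104935 counts in all and medians of 5204, 3428, 3405 and 3407 counts per cell. Median mitochondrial shares were 3.23%, 2.998%, 4.97% and 5.55%. Mutant A thus rests on 6 cells and is the thinnest library for every value below: 3 counts there are worth 129.7 CPM, against 47.5, 28.7 and 28.6 CPM in the others. Pairs of libraries shared 12 to 42 barcode names, none of them among macrophages.

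Most members were C1q-rich and a few were not. The C1q chains are among the 6 genes of the rule, so the share of C1q-rich members was largely set by the selection. At least 3 counts over the C1q chains were held by 64 members, which included all members of WT A and mutant B, 21 of 23 in WT B and 3 of 6 in mutant A. The other 5 members, set apart after their counts were seen, held 0 or 1 C1q count each but 16 to 54 counts over the 18 independent markers. Plac8, a gene of classical monocytes and granulocytes, had 36, 26, 17 and 6 counts in 4 of these 5 cells and none in the fifth. Over these 5 cells it stood at 4879 CPM, against 115 CPM in the 64 C1q-rich cells. Mrc1 had no count in the 5 cells and stood at 1056 CPM in the other 64.

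Markers of blood monocytes were otherwise sparse. Ly6c2 and Chil3, which mark classical monocytes, had no count in any member. Ccr2, the chemokine receptor through which monocytes leave the marrow, was found in 11 members, with 63.4, 0, 172 and 66.7 CPM. At least 10 counts over the 12 monocyte genes were held by 7 members, 3 of them among the C1q-poor cells. The summed monocyte list stood at 285, 1989, 1271 and 667 CPM. Without the C1q-poor cells and those rich in acinar or fibroblast counts it stood at 285, 0, 279 and 469.8 CPM. Its high values in mutant A and WT B therefore rested on those cells. The same list summed to 983.4 to 1885 CPM in endothelial cells and to 779.8 to 2667 CPM in fibroblasts, so it was not particular to monocytes.

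**Figure D2:**
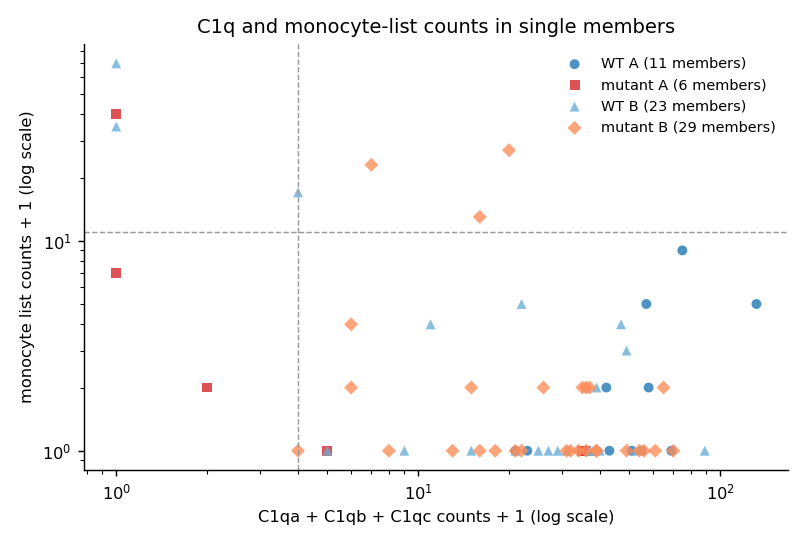
Each point is 1 macrophage; the x axis gives its C1qa, C1qb and C1qc counts + 1 and the y axis its counts + 1 over the monocyte list, both on log scales, with dashed lines at 3 C1q counts and 10 monocyte-list counts. The 5 cells left of the vertical line are 3 of mutant A and 2 of WT B, and 3 of them lie above the horizontal line.

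Defining genes of lymphocytes and dendritic cells were at or near 0, and neutrophil genes lay mostly in C1q-poor cells. The T and NK cell list held 3, 1, 4 and 7 counts, with no count for Cd3d, Cd3e, Cd3g, Trac or Nkg7 in any member. The neutrophil list stood at 95.1, 259, 191 and 28.6 CPM and rested on 6, 6, 20 and 3 counts. The 2 C1q-poor cells of WT B held 9 and 7 of these, with all counts of Ly6g and S100a8, and 1 C1q-poor cell of mutant A held 5. Among dendritic cell genes, Flt3 and Cd209a had no count, and Zbtb46 and Clec9a had 1 count each in all members, while Cst3, which macrophages also express, made up 513 of the 544 counts of that list. Of the 54 counts of the B cell list, 44 were of Ighm. Scrublet called 40 of the kept barcodes doublets, none of them a macrophage.

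MHC class II genes had few counts in nearly all members, in contrast to MHC class I, though their sum lay above the remaining cells. The 12 class II genes summed to 269.5, 475.7, 391.9 and 810 CPM, against 13.6 to 31.3 CPM in the remaining cells. Of their 85 counts in mutant B, 56 lay in 1 cell. H2-Aa, which encodes a class II alpha chain, had 22 counts in all, 20 of them in 1 cell of mutant B. That cell also held 19 of the 26 counts of H2-Ab1, the partner beta chain, 11 counts of Cd74, the invariant chain, and 6 C1q counts. Cd74 was the class II list gene found in most members, 19 of them, with 95.1, 129.7, 143 and 191 CPM. Ciita, the regulator of class II genes, had no count. B2m, the light chain of class I, stood at 2615, 1989, 2380 and 2249 CPM and was found in 68 members. The 13 class I genes summed to 5421, 6400, 5525 and 4031 CPM, above the 1347 to 1742 CPM of the remaining cells. Counts of the near-identical heavy-chain genes H2-D1, H2-K1 and H2-Q4 may be split among copies. The interferon list stood at 254, 432, 411 and 372 CPM in macrophages, below the 802 to 974 CPM of endothelial cells.

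The CSF1 receptor, whose gene is part of the rule, and its factors were present while its ligands were nearly undetected. Csf1 had 1 count in all members and Il34 none, whereas Csf1 averaged 36.5 CPM in 627 fibroblasts and 21.7 CPM in endothelial cells, and Il34 40.7 CPM in fibroblasts. A count of 0 allows up to 47.55 CPM in WT A and 129.7 CPM in mutant A, above these fibroblast levels. Spi1 was found in 35 members, at 238, 519, 239 and 153 CPM. Maf, a factor of resident macrophages, stood at 745, 346, 335 and 572 CPM. Irf8, which directs myeloid cells to the monocyte lineage, stood at 365, 259, 277 and 400.2 CPM. Of the genotype groups, neither lay wholly above the other for Spi1, Maf or Irf8.

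Complement and Fc receptor genes lay above the remaining cells in all 4 libraries. The C1q chains of the rule held most of the complement counts in each library, so the complement sum was largely set by the selection. The 15 complement genes summed to 10860, 4065, 6605 and 8510 CPM, against 61.0 to 124 CPM in the remaining cells. C3ar1, the receptor for C3a, was found in 44 members with 618, 86.5, 325 and 334 CPM. C3, the central component, was found in 4 members, and neither C4b, an early component, nor Vsig4, a complement receptor of some tissue macrophages, had a count. Fcer1g, the common Fc receptor gamma chain, stood at 904, 519, 946 and 781 CPM. Fcgr2b, the inhibitory IgG receptor, stood at 238, 216, 47.8 and 629 CPM. Reads of related Fc receptor genes may be split among them.

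Lysosomal genes were among the most strongly represented groups and varied by library. The 22 genes summed to 35740, 16950, 18870 and 35080 CPM, against 2663 to 3573 CPM in the remaining cells. Ctsb, encoding cathepsin B, stood at 5563, 3632, 2342 and 7481 CPM, and was found in all 69 members. Psap, the precursor of the saposins that serve lipid breakdown, stood at 6229, 1946, 3269 and 7986 CPM. Lgmn, the asparaginyl protease legumain, stood at 2774, 735, 1224 and 1954 CPM. WT A and mutant B were high and mutant A and WT B low in the sum, so the genotype groups overlapped.

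Lipid and iron genes were carried unevenly by the cells. Apoe, the lipid carrier apolipoprotein E, stood at 9796, 3157, 6921 and 4546 CPM and was found in 67 members (97.1%), against 13.5% of endothelial and 13.6% of beta cells. After thinning each cell to 1000 counts, which left out 2 macrophages, 5 endothelial and 163 beta cells, these shares were 92.5%, 0.959% and 2.28%. Hmox1, the enzyme that degrades heme, stood at 4264, 216, 3652 and 1801 CPM. It was found in 35 members, and 1 cell of WT B held 219 of its 845 counts. Without the highest cell of each library Hmox1 stood at 2657, 0, 1624 and 1400 CPM. Fth1, the ferritin heavy chain, was found in all members at 7149, 2335, 1740.0 and 1620 CPM, with the high value in WT A alone. Hemoglobin transcripts were few, the erythroid list holding 1, 0, 7 and 7 counts.

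Scavenger genes gave a partial resident-type profile. Mrc1 stood at 269.5, 389, 574 and 1982 CPM and was found in 7, 2, 14 and 25 members. At least 5 counts of it were held by 1, 1, 5 and 16 members, so mutant B was high across many cells and not through 1 of them. Axl, a receptor for dying cells, was found in 53 members, at 317, 216, 526 and 600.4 CPM. Trem2, a lipid-sensing receptor that signals through DAP12, was found in 35 members. Lyve1, Colec12 and Cd209f, which mark perivascular macrophages, had no count, Timd4 had 1, and Cd163 was found in 3 members.

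Genes of alternative activation were high in mutant B. The list summed to 697, 1340, 832 and 4107 CPM, and Mrc1 is one of its 13 genes. Retnla, a secreted protein of alternatively activated macrophages, had all of its 83 counts in 3 cells of mutant B, 64 of them in 1 cell. Ccl24, an eosinophil attractant, had 49 counts in 11 members, 9 of these in mutant B, with 15.9, 0, 38.2 and 419 CPM. The cell with most Retnla also held 12 counts of Ccl24 and 18 of Mrc1. Igf1, an insulin-like growth factor, followed the same order in its highest library, at 475.5, 86.5, 124 and 953 CPM, and was found in 23 of the 29 members of mutant B. Mutant A did not share these high values, so both genotype groups overlapped for Ccl24 and Igf1.

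Summed chemokine and cytokine genes were lowest in mutant B, though single chemokines differed in their order. The chemokine list summed to 8543, 11330, 5841 and 4631 CPM, and the cytokine and inflammation list to 5246, 8086, 3871 and 1954 CPM. In mutant A 2 cells held 81 and 168 of the 262 chemokine counts, and 114 and 55 of the 187 cytokine counts. In C1q-rich cells without those rich in acinar or fibroblast counts, the mutant A sums, then from 3 cells, were 22220 and 15080 CPM. Cxcl2, a neutrophil attractant, stood at 3202, 3632, 812 and 362 CPM. Ccl4, an attractant of monocytes and T cells, stood at 777, 2465, 1071 and 457 CPM and was found in 37 members (53.6%), against 0.315% of endothelial cells. Tnf, tumor necrosis factor, stood at 935, 2205, 841 and 209.7 CPM. For all 3 genes mutant A was highest and mutant B lowest, so the range of the libraries labelled mutant enclosed that of the libraries labelled WT. In mutant A 1 cell held 39 of the Tnf counts, and without the highest cell of each library Tnf stood at 658, 646, 600 and 159 CPM. Cxcl2 and Ccl4 were each found in only 2 cells of mutant A. Without the highest cell of each library Cxcl2 stood at 2974, 1817, 803.6 and 213.6 CPM, with WT A highest. Ccl4 then stood at 658.5, 1465, 810.2 and 379.7 CPM, with mutant A still highest. Ccl7, Ccl12 and Ccl24 were highest in mutant B. Ccl7 stood at 95.1, 173, 66.9 and 419 CPM. Ccl12, which also draws monocytes, stood at 95.1, 216, 124 and 419 CPM, so that for both genes the libraries labelled mutant lay above those labelled WT. In mutant A each of these values came from 1 cell, with 4 counts of Ccl7 and 5 of Ccl12. Without the highest cell of each library, both genes stood at 0 CPM in mutant A, below WT B. Mutant B then remained highest, at 346 CPM for Ccl7 and 249 CPM for Ccl12. Il6, Il1rn and Ccl8 had no count.

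Immediate early and dissociation genes, which rise when tissue is taken apart, were lowest in the same library. The 20 genes summed to 21030, 24990, 14760 and 10180 CPM. In endothelial cells of the 4 libraries they summed to 14510 to 21680 CPM, and in fibroblasts to 16340 to 23490 CPM. The part of handling in the chemokine and cytokine levels was not tested.

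**Figure D3:**
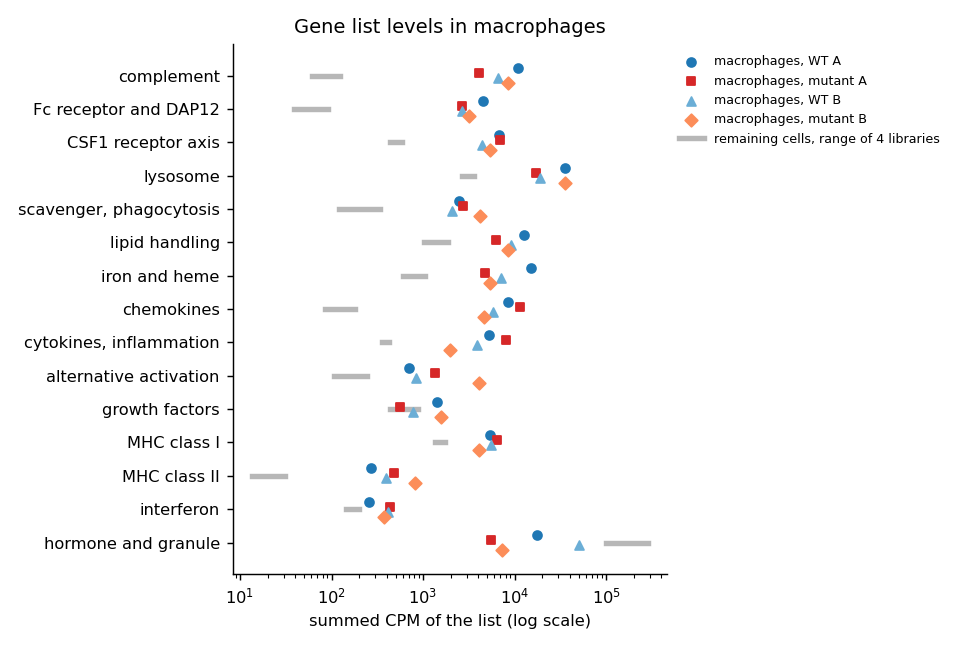
Summed CPM of 15 gene lists on a log scale; coloured symbols are the macrophages of each library and grey bars the range over 4 libraries of all remaining cells. Mutant B is highest for alternative activation (4107 CPM) and lowest for cytokines (1954 CPM), and the hormone list is the only one shown that lies below the remaining cells in all 4 libraries.

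Macrophages made up 0.902%, 0.523%, 1.28% and 1.21% of kept barcodes. The exact Clopper-Pearson 95% intervals, which cover counting error only, were 0.451% to 1.61%, 0.192% to 1.14%, 0.812% to 1.91% and 0.811% to 1.73%. The libraries labelled mutant differed from those labelled WT by -0.22 percentage points, with an exact two-sided permutation p of 0.667. With 2 libraries against 2 the smallest p is 0.3333, and all p-values here measure the spread between these libraries. Both B libraries lay above both A libraries. Without mutant A the difference was 0.119 points, of opposite sign. As a share of the hormone-poor barcodes the values were 2.72%, 2.84%, 2.10% and 1.47%.

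Members that counted as cycling were present in every library, with 1 in mutant A. There, 95 of the 162 counts over the 25 cell-cycle genes lay in the cell with 1 C1q count and 16 ductal counts. A cell counted as cycling with at least 2 counts over 8 mitotic and proliferation markers, among them Mki67 and Top2a, after thinning to 1000 counts. The counts were 3 of 11, 1 of 5, 3 of 22 and 7 of 29, or 27.3%, 20%, 13.6% and 24.1%. Without thinning the shares were 45.5%, 33.3%, 17.4% and 55.2%. Thinned alike, endothelial cells gave 10.5%, 10.3%, 16.2% and 6.04%, and beta cells 11.5%, 8.67%, 9.15% and 15.7%. Fibroblasts gave 9.47%, 5.88%, 14.9% and 18.0%. In WT B the endothelial and fibroblast shares lay above that of macrophages. Free RNA was not removed from these counts, and its part was not tested. The libraries labelled mutant lay 1.61 points above those labelled WT, with an exact two-sided permutation p of 1. The sign turned without WT B (-5.20 points) and without mutant B (-0.45 points).

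**Figure D4:**
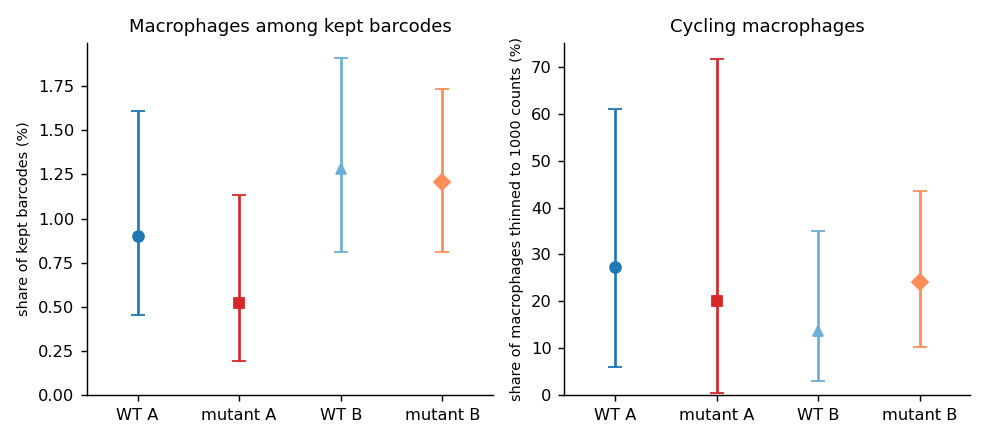
Left, macrophages as a percent of kept barcodes; right, cycling macrophages as a percent of macrophages thinned to 1000 counts; symbols are libraries and bars exact 95% binomial intervals. The intervals of all 4 libraries overlap in both panels.

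The gene named in the genotype, Sin3a, whose product holds together a corepressor complex with histone deacetylases, was nearly undetected in macrophages. It is a protein-coding gene on the plus strand of chromosome 9, from 57072040 to 57128366 on GRCm38. It had 0, 9, 1 and 0 counts, in 4 cells, of which 3 were in mutant A. Of the 9 counts, 8 lay in 2 C1q-poor cells, and in C1q-rich cells without those rich in acinar or fibroblast counts Sin3a had 0, 1, 1 and 0 counts. A count of 0 allows up to 47.5 CPM in WT A and 28.6 CPM in mutant B, and the 9 counts of mutant A equal 389 CPM. In endothelial cells Sin3a averaged 54.9 CPM. Within A the values went against the labels, so every direction given here is that of the labels alone. Whether macrophages carried the mutation cannot be told from these counts, since a 3′ tag may lie outside the altered part.

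No gene was called between the genotypes in macrophages when libraries were not paired by title number. Counts were summed per library and tested with edgeR's quasi-likelihood F test and Benjamini-Hochberg adjustment over 1719 genes, of which 0 rose and 0 fell at an adjusted p under 0.05 (0.0%). At an unadjusted p under 0.05 there were 16 genes higher and 16 lower, 1.86% of those tested. DESeq2 also called 0 and 0 of 15546 genes, with 22 and 14 at an unadjusted p under 0.05. With equal title numbers treated as paired, edgeR called 2 genes higher (Cyr61 and Sparc) and 1 lower (Ins2). Omitting single libraries gave calls: without mutant A 14 genes were called higher and none lower, and without mutant B 7 were called in each direction. In each of these fits the mutant label is held by 1 library, which is assumed to vary as the libraries labelled WT do. The 14 included the alternative activation genes Retnla and Ccl24, the fibroblast genes Col1a2, Col3a1 and Postn and the acinar genes Cpa1, Clps and Sycn. In mutant B 1 cell held 33 of the 35 Col3a1 counts and another held 593 of the 855 counts of Ctrb1, an acinar protease. In these bulk sums a change in which cells met the rule and a change within cells cannot be told apart.

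Of the 5 genes of smallest p with higher values under the mutant label, Cyr61, Clu and Spp1 had most of their counts in 2 cells. Cyr61, a matricellular protein, stood at 0, 865, 9.56 and 181 CPM, with a log2 difference of 5.93 ± 1.22 (SE) and an edgeR adjusted p of 0.274. Clu, the secreted chaperone clusterin, stood at 0, 995, 38.2 and 133 CPM, with 4.33 ± 1.15 and an adjusted p of 0.690. Spp1, the secreted phosphoprotein osteopontin, stood at 127, 1211, 47.8 and 229 CPM, with 2.93 ± 0.94 and an adjusted p of 1.00. One cell of mutant A, with 1 C1q count and 16 counts over ductal genes, held all counts of these genes in that library: 20 of Cyr61, 23 of Clu and 28 of Spp1. One cell of mutant B, with 21 C1q counts and 27 ductal counts, held 15 of the 19 Cyr61 counts, all 14 of Clu and 21 of the 24 of Spp1. With these 2 cells left out, the 3 genes no longer passed the filter on low counts, and no gene was called.

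Sparc and Dnmt1 completed this group. Sparc, a collagen-binding matrix protein, stood at 15.9, 476, 38.2 and 429 CPM in 1, 1, 2 and 8 members, with a log2 difference of 3.81 ± 0.86 and an edgeR adjusted p of 0.357. The same cell of mutant A held all 11 of its counts there. In mutant B the ductal-rich cell held 6 of its 45 counts and the fibroblast-rich cell 20. Sparc did not pass the filter without the 2 ductal-rich cells. Dnmt1, the maintenance DNA methyltransferase, stood at 31.7, 389, 28.7 and 153 CPM in 2, 2, 3 and 9 members, with 2.93 ± 1.08 and an adjusted p of 1.00. For Cyr61, Sparc, Clu, Spp1 and Dnmt1 both libraries labelled mutant lay above both labelled WT.

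All 5 genes of smallest p with lower values were islet hormone or granule genes. Ins1, Ins2 and Gcg are genes whose share the rule capped, together with Sst, at 10% of a member's counts. Barcodes left out for this numbered 0, 3, 7 and 1, so the values and p of these genes are bounded by the selection. Ins2 stood at 6166, 1081, 11990 and 1163 CPM, with a log2 difference of -3.09 ± 0.76 and an edgeR adjusted p of 0.504. Ins1 stood at 7133, 2249, 11570 and 953 CPM, with -2.65 ± 0.77 and an adjusted p of 1.00. Scg2, a granule protein, and Pcsk2, a prohormone convertase, differed by -2.48 and -2.54. Gcg, which encodes glucagon, had 475.5, 432, 6959 and 829 CPM, and its difference of -2.62 became 0.41 without WT B. For Ins2, Ins1, Scg2 and Pcsk2 both libraries labelled mutant lay below both labelled WT, while for Gcg mutant B lay above WT A and the groups overlapped.

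Ins2 and Ins1 were each found in 61 members and Gcg in 64, though in WT B single cells held large parts of their counts. The hormone sum of macrophages did not follow the order of insulin in the remaining cells. The 15 hormone and granule genes summed to 17480, 5492, 50890 and 7347 CPM in macrophages. Of these, 11 of 11 tested had lower values under the mutant label, with a median log2 difference of -2.22. Ins1, Ins2, Gcg and Sst, which the rule capped, are part of this list. In endothelial cells the same list ran from 3993 to 8070 CPM, and in fibroblasts from 7565 to 43560 CPM. Ins2 in all remaining cells stood at 50690, 86180, 23580 and 14020 CPM, highest in mutant A, where the hormone sum of macrophages was lowest. One cell of WT B held 531 counts of Ins2 and 548 of Ins1 beside 88 C1q counts, the most counts of any member, 21235. Another cell of WT B held 566 of the 855 Gcg counts. Without the highest cell of each library Ins2 stood at 1135, 710.2, 8671 and 955 CPM. At least 5% of counts in the 4 hormone genes were held by 1, 1, 6 and 0 members. The parts of engulfed granules, joined cells and free RNA were not tested.

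**Figure D5:**
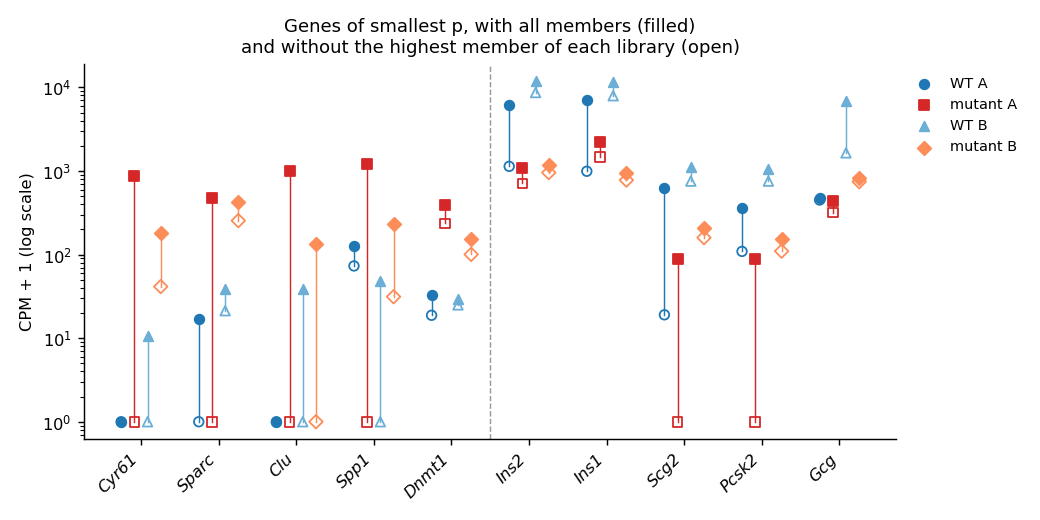
CPM + 1 on a log scale for the 5 genes of smallest p with higher values (left of the dashed line) and lower values (right) under the mutant label; filled symbols use all macrophages of a library and open symbols leave out the cell with most counts of that gene. Without that cell Cyr61, Clu, Spp1 and Sparc fall to 0 CPM in mutant A.

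The gene groups of macrophages were also compared as lists. Over all 1719 genes tested 805 had higher and 914 lower values under the mutant label, with a median log2 difference of -0.04. Of the 15 independent macrophage markers tested 3 were higher and 12 lower, with a median of -0.44. Lysosome genes had 6 higher and 15 lower (median -0.38). Chemokine genes had 6 and 9 (median -0.22), with Ccl7, a monocyte attractant, higher (1.92) and the receptor gene Cxcr4 lower (-2.20) at an unadjusted p under 0.05. Cell-cycle genes had 10 and 4 (median 0.32), or 7 and 7 with DESeq2's scaling (median 0.20). Lipid-handling genes had 7 and 2 (median 0.23). Their summed level went the other way, at 12680, 6313, 9081 and 8558 CPM, with both libraries labelled mutant below both labelled WT. No member of any list was called. Mrc1 had a log2 difference of 1.46 ± 0.82, with an edgeR adjusted p of 1.00, and Hmox1 -1.95 ± 0.85, also with 1.00.

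The genotype difference in macrophages was tested against that in all remaining cells, in 1 edgeR model with the library as a block. Of 16876 genes 0 differed in either direction at an adjusted p under 0.05 (0.0%), and the unadjusted p was under 0.05 for 57 with a higher and 120 with a lower value, 1.05% of those tested. DESeq2 called 0 and 0, with 51 and 74 at an unadjusted p under 0.05. Without WT B, Ctrb1 and Pnliprp1, both acinar, were called higher. Without mutant B, Cyr61 and Spp1 were called higher and Ms4a7, a gene of mature macrophages, lower. Ms4a7 stood at 999, 0, 918 and 991 CPM in macrophages, so that its call rested on the absence of counts in the 6 cells of mutant A, where 0 allows up to 129.7 CPM.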

How the data were processed

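Per the deposited tables, each library holds raw counts per gene and barcode, whole numbers that were not normalized. Per the submitters' processing notes the builds were GRCm38 and GRCh38; the aligner, the annotation and the handling of molecular barcodes were not given in the sources used here. Features numbered 38459, of which the 38457 marked as mouse were used. Its design text names 2 biological replicates. The total counts per library ran from 9282495 to 12835199, over 1302 to 2445 barcodes.

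Cells were chosen by the rule given above; 3 comparison sets (endothelial, fibroblast and beta cells) were chosen by marker counts. Counts were summed over the macrophages of each library, scaled to CPM for levels, and tested with edgeR 4.0.16 (TMM factors, filterByExpr, quasi-likelihood F test, Benjamini-Hochberg adjustment). DESeq2 1.42.0 was an alternative. Each log2 SE was derived from edgeR's F as the log2 difference over the root of F. Scrublet in scanpy 1.11.5 marked 40 of 6566 kept barcodes (0.609%) as doublets, and none was removed from the main sets. The caller ran on each library with seed 1. A zero is given the level of 3 counts as its upper limit. Chi-square over its degrees of freedom, between the macrophage sums of a genotype's libraries, was 4.71 (WT) and 5.17 (mutant), so none was counted as a repeat of another. The scripts were tested on simulated data.

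The cells and the 34 gene lists were chosen with earlier results of these data known; 5 listed genes are not in the tables. Genes were named by rule: the 6 rule genes and Sin3a, the 5 of smallest p per direction where fewer than 5 were called, the 3 members of each list with the highest mean CPM, and the 25 with the largest ratio to the remaining cells among genes with at least 20 macrophage counts and 100 CPM, predicted genes passed over. Some items the rule would name are not reported here. Other genes in the text are list members or were picked after their values were seen. GENCODE and RefSeq tables on GRCm38 gave positions and sequences. The alternatives were another tool, no filter, the replicate block, each library left out, stricter rules for cells, hormone genes left out, and, chosen after seeing the data, C1q-rich cells without acinar or fibroblast counts and cells with under 10 ductal counts.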

Additional observations from a re-analysis of the deposited data

How the results depend on the processing

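The absence of calls between genotypes (0 higher, 0 lower) held with DESeq2, with doublets removed (no macrophage was marked), with at least 10 counts over the rule genes, at most 10% mitochondrial counts, hormone genes left out, C1q-rich cells only, and cells with under 10 ductal counts. With no filter on low counts 1 gene was called higher, Retnla, 64 of whose 83 counts lie in 1 cell. With each library left out in turn, 0 to 14 genes were called higher and 0 to 7 lower. With the replicate block, which treats equal title numbers as paired, 2 genes were called higher (Cyr61 and Sparc) and 1 lower (Ins2). Against the remaining cells the replicate block gave 1 higher (Cyr61) and 5 lower (Ins2, Ins1, Scg2, Chga and Hmox1), and leaving out each library gave 0 to 2 higher and 0 to 1 lower. Same-numbered libraries deviated together with a correlation of 0.30 across 1719 genes, but with 2 pairs the numbers are only shared labels. Of the 10 genes named for their p, only Gcg changed sign: with each library left out its log2 difference ran from -3.53 to 0.41, the latter without WT B. The median log2 difference of the 1719 genes moved from -0.04 to -0.16 with DESeq2 and -0.13 with no filter. The difference in macrophage share ran from -0.57 to 0.12 points with each library left out, and kept its sign elsewhere; that in cycling share ran from -5.20 to 8.43 points. The mean summed level of the monocyte list fell to 259 CPM in C1q-rich cells without acinar or fibroblast counts. The causes were not tested. Of 664 recomputed levels of genes and lists, 4 moved by more than 1 SD, the monocyte list and 3 values of Csf1r. Leaving out 1 library cannot shift a mean over 4 libraries by 1 SD of them, so those settings could not count as moved. Counts limit these results: mutant A holds 6 macrophages and 23126 counts.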

Other observations

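C1qa was found in many more beta cells than the other C1q chains. It was found in 29.4% of 2571 beta cells, against 0.817% for C1qb and 0.856% for C1qc, and in 0.314% of endothelial and 1.44% of fibroblast cells, where C1qc was found in 1.89% and 0.319%. Thinned to 1000 counts, the beta share of C1qa was 4.86%. Its mean level in beta cells was 51.5 CPM, against 2704 CPM in macrophages.

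Erythroid transcripts, which are abundant in the remaining cells of these libraries (1130 to 1645 CPM over 8 genes), stood at 15.9, 0, 66.9 and 66.7 CPM in macrophages, although Hmox1 was found in 35 of them. Osm, the cytokine oncostatin M, was found in 19 members at 254, 0, 153 and 181 CPM and at 1.61 CPM on average in the remaining cells. Pdgfb, a growth factor for pericytes, stood at 254, 173, 47.8 and 38.1 CPM, lower in both B libraries than in both A libraries.

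Heat shock genes also followed the title numbers and not the genotypes. Hspa1b stood at 15.9, 0, 784 and 324 CPM in macrophages and Hspa1a at 31.7, 43.2, 545 and 172 CPM. Ly86, a partner of a Toll-like receptor homolog, stood at 254, 129.7, 1357 and 1163 CPM, with counts in 7, 2, 23 and 25 members. The ratio between the A and B libraries was not tested, since the labels do not say what the numbers mean.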
